A study of Homo sapiens with 6 samples.

Results

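The genes described here are 48 genes of DNA replication and S phase, taken by name from a fixed list. They were found among 26850 genes on primary chromosomes. RefSeq transcript accessions were matched to gene symbols, and each gene was represented by its entry of highest mean. All 48 had a value and an adjusted p in each of the 3 deposited comparisons. The rule that picks them uses no difference between groups, but the list was drawn up with earlier results of these data known.

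RNA was sequenced from U2OS 2-6-3 cells, a human osteosarcoma line that carries an integrated reporter array, in 6 libraries that formed 3 groups of 2. Sample cells were transiently transfected with the constructs CIBN-TetR and PHR-YFP-VP16, in which blue light brings PHR to CIBN and with it the VP16 activator to tet operators, and with mCherry-MCP. Mock cells were transiently transfected with TetR-RFP and YFP. Untransfected cells received neither plasmids nor transfection reagent. All 3 groups stood under white light overnight in low-glucose medium with serum free of doxycycline, so the effect of light was not tested, and the share of cells that took up plasmids is not given in the labels. Whether the libraries of a group came from separate cultures is not stated in the labels, and the p-values cover only the spread between them, which may be technical.

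The 3 deposited tables hold the authors' DESeq2 comparisons and no column per library. Read counts of the 6 libraries were solved from the deposited means. Totals were 50105854 and 9579278 reads in sample cells, 54177551 and 44594507 in mock cells and 53596406 and 51146190 in untransfected cells. The deeper library of each group is called a and the shallower b, and sample library b is by far the shallowest. Levels below are normalized read counts, which are reads divided by a median-of-ratios size factor over all 6 libraries. They are given for library a first and library b second. Mesenchymal markers were present throughout, with VIM at 39506 and 50654 in sample cells, 41617 and 46762 in mock cells and 37686 and 40348 in untransfected cells. The 10 mesenchymal and osteoblast markers summed to 67827 and 87296 in sample cells, 68637 and 74735 in mock cells and 78039 and 81428 in untransfected cells, nearly all of it VIM, SPARC and COL1A1. Of the defining osteoblast genes IBSP had no read in any library and SP7 stood at or below 0.650, while BGLAP ran from 16.5 to 40.6 and SPP1 from 120.4 to 196 over the 6 libraries. COL1A2 stood at or below 27.9. SPARC stood at 21376 and 20892 in sample cells, 20379.5 and 21376 in mock cells and 31910 and 32303 in untransfected cells. It was lower in every transfected library. COL1A1 stood at 6105 and 14774 in sample cells, 5574 and 5448 in mock cells and 7824 and 8117 in untransfected cells. Its level in sample library b lay above that of every other library. RUNX2 was lower after transfection (93.1 and 132 in sample cells, 66.7 and 64.0 in mock cells, 379 and 414 in untransfected cells), and ALPL was higher (539.8 and 655 in sample cells, 764 and 868 in mock cells, 57.2 and 68.4 in untransfected cells).

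Markers of other cell types also differed between groups, the blood markers mainly between sample cells and the rest. The 4 epithelial markers summed to 232 and 185 in sample cells, 239 and 195 in mock cells and 906 and 994 in untransfected cells, and 3 of them, EPCAM, KRT5 and KRT14, were lower in all 4 transfected libraries. The 3 endothelial markers summed to 25.03 and 20.6 in sample cells, 23.4 and 15.8 in mock cells and 131 and 148 in untransfected cells, most of it VWF. The 4 blood markers summed to 108 and 65.9 in sample cells, 17.7 and 9.27 in mock cells and 14.9 and 14.3 in untransfected cells. HBB made up most of this in sample cells, and CD3E had no read in any library. The part of these marker differences in the results below was not tested.

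Replication starts from origins that are marked in G1, when the origin recognition complex, CDC6 and CDT1 load the MCM2-7 helicase onto DNA. Entry into S phase switches this helicase on through the kinases CDC7-DBF4 and CDK2 with cyclin E, after which CDC45, the GINS complex and the DNA polymerases form the replication fork. Many of these genes are transcribed at the passage from G1 to S by E2F factors, which RB family proteins hold in check. In RNA of a whole culture, fewer cells in S phase and less RNA per cell cannot be told apart.

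Promoter windows are shown for the 6 genes on which the results below turn. They are E2F2, E2F1, MCM6, CDC6 and GINS3, which hold an E2F word, and CCNE1, which holds none of the words searched. Each window runs from 250 bases before to 50 bases after the start of the RefSeq transcript, on the strand of the gene (RefSeq, GRCh38.p14). The E2F words searched on both strands were TTTCCCGC, TTTGGCGC and TTTCGCGC, and capitals mark them or their reverse complements. The words TTTGGCGC and TTTCGCGC overlap where the first is followed by GAAA, as in MCM6. The windows lie at chr1:23531184-23531483 on the minus strand for E2F2, chr20:33686336-33686635 on the minus strand for E2F1 and chr2:135876394-135876693 on the minus strand for MCM6. They lie at chr17:40287629-40287928 on the plus strand for CDC6, chr16:58392221-58392520 on the plus strand for GINS3 and chr19:29811741-29812040 on the plus strand for CCNE1.
E2F2: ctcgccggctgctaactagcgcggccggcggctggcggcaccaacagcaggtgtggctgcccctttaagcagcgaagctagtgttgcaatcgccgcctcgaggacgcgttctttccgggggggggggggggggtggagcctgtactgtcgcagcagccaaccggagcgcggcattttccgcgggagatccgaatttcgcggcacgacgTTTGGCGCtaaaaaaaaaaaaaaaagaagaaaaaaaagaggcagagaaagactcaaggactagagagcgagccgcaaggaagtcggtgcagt
E2F1: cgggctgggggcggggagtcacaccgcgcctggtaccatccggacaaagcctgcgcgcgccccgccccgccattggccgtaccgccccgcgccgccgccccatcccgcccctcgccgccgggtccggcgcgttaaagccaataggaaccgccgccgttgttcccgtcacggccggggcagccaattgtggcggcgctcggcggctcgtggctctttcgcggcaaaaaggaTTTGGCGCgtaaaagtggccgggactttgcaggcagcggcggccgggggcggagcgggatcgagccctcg
MCM6: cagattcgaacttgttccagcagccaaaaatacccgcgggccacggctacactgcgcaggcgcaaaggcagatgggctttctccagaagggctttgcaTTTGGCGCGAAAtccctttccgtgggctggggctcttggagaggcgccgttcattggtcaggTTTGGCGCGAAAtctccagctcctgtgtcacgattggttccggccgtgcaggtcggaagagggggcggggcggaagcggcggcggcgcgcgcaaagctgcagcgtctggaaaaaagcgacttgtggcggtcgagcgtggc
CDC6: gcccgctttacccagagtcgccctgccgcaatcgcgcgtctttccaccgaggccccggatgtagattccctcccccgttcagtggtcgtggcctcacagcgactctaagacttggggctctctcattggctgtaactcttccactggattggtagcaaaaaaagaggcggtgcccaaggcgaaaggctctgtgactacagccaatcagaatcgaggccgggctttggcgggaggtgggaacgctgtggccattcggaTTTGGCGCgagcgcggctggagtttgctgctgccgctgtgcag
GINS3: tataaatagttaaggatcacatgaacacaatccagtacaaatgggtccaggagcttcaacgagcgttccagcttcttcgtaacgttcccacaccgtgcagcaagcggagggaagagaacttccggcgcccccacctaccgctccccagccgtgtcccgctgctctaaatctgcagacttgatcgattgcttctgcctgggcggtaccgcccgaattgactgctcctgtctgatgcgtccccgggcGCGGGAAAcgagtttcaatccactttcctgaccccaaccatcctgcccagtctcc
CCNE1: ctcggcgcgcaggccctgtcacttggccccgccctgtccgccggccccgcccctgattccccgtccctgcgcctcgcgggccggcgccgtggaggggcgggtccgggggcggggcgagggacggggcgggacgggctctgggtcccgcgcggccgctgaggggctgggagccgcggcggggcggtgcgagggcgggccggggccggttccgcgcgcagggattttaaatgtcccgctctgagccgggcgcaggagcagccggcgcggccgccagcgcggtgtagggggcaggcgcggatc

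In the E2F2 window the word began 42 bases before the start and in the E2F1 window 20 bases before it. MCM6 held the overlapping pair TTTGGCGCGAAA at 2 places, beginning 152 and 90 bases before the start. The CDC6 word began at base 8 of the transcript, and the reverse complement in GINS3 began 5 bases before the start. A match to these letters is a description of the window and no evidence of binding.

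Single replication genes moved up or down after transfection, while their median on size factors stayed near 0. In mock against untransfected cells 10 of the 48 genes rose and 14 fell at an adjusted p under 0.05 in the authors' deposited DESeq2 table. The median log2 fold change of the 48 was 0.00, and the interquartile range ran from -0.26 to 0.17. Of all 17091 genes tested in this comparison 50.9% were called, 27.5% higher and 23.4% lower, beside 24 called members, 50% of 48. All members have a deposited mean above 50, and among genes with a mean of 50 or more the background was 61.2%. In sample against untransfected cells 6 genes rose and 11 fell, and the median log2 fold change was -0.05 in the authors' deposited table. The background there was 37.3% of 15565 genes, 20.2% higher and 17.1% lower, and 43.4% among genes with a mean of 50 or more, against 35.4% of the members. E2F2 was the only member in either comparison that was called and moved by 1 log2 unit or more. Of all genes 11.9% in sample cells and 15.7% in mock cells did so. Those shares include genes of low mean, and the share among genes with a mean of 50 or more was not computed.

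The sample and mock comparisons share the untransfected libraries, so their values are set side by side and are not independent. The 17 members called in sample cells were all called in mock cells too. ORC6, MCM2, POLA1, POLE2, RFC2, RPA2 and TYMS were called in mock cells but not in sample cells. None of these 7 was called between sample and mock cells. In sample cells limma-voom on solved counts of all 6 libraries also called ORC6 (adjusted p = 0.0203), MCM2 (0.0397), POLA1 (0.0236) and RPA2 (0.0491). With sample library b left out, the limma log2 fold change in sample cells was 0.46 for POLE2 and -0.32 for TYMS. Library b lay above both untransfected libraries for TYMS and between them for POLE2. Leaving it out keeps only the sample library that went the way of mock cells, so no conclusion is drawn from that fit. With all 6 libraries limma-voom called 8 members higher and 14 lower in sample cells, and 9 higher and 14 lower in mock cells. Of all 14891 genes it called 50.9% in sample cells and 59.2% in mock cells. Scaled by library totals in place of size factors, it called 5 members higher and 18 lower in sample cells. In mock cells that scaling gave 8 higher and 18 lower. On that scale 7029 of the 14891 genes were called in sample cells and 8350 in mock cells.

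In 13 of the 48 genes all 4 transfected libraries were higher than both untransfected libraries, in 18 all 4 were lower, and in 17 the libraries overlapped. Over all genes tested, 33.9% had all 4 transfected libraries higher and 33.8% had all 4 lower. The summed normalized reads of the 48 genes were 148095 and 143163 in sample cells, 149078 and 151169 in mock cells and 156341 and 154450 in untransfected cells. As a share of the reads of all genes they made up 0.535% and 0.517% in sample cells and 0.556% and 0.516% in mock cells. In untransfected cells that share was 0.633% and 0.592%.

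**Figure D1:**
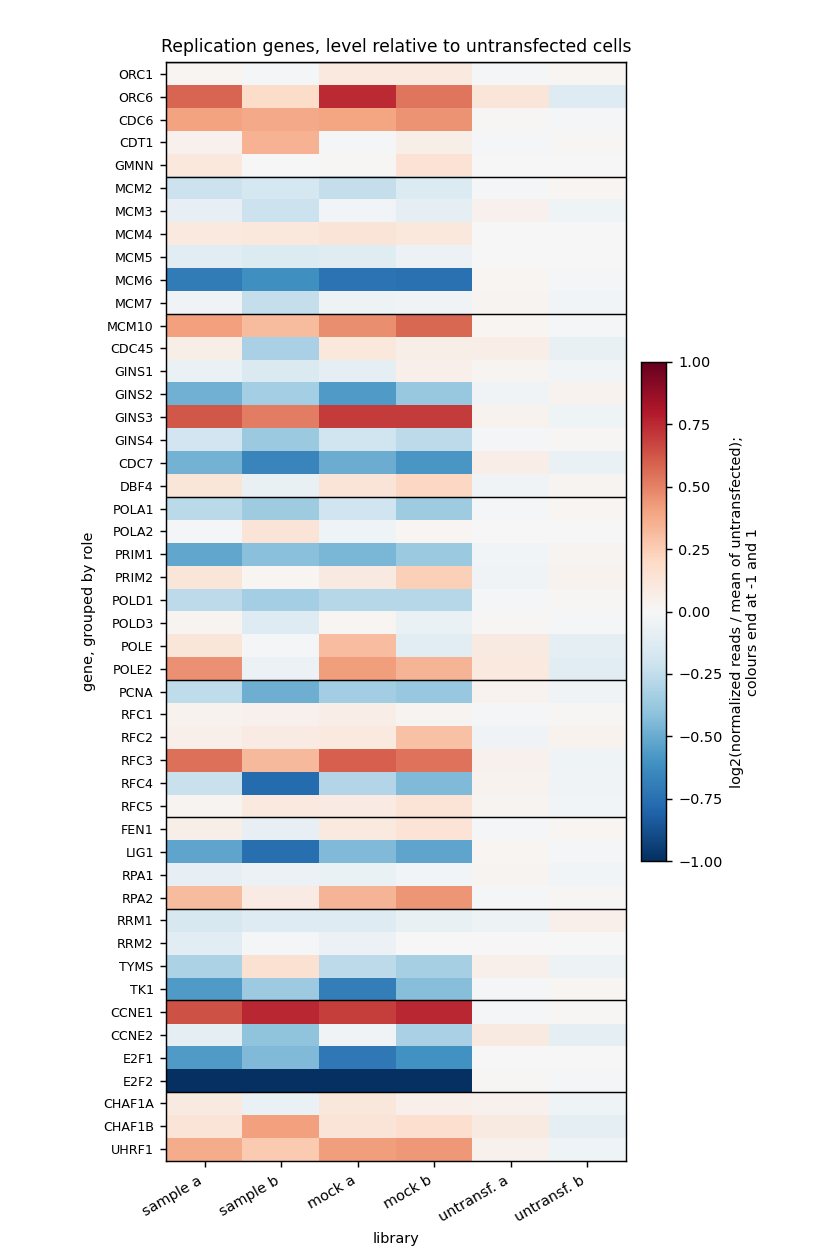
Level of each of the 48 replication genes (rows, in order of role) in each of the 6 libraries (columns), as log2 of the normalized read count over the mean of the untransfected libraries, with colours ending at -1 and 1. E2F2 and MCM6 are blue and CCNE1, GINS3 and RFC3 are red in all 4 transfected libraries, and rows of either colour stand side by side in most role groups.

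The G1/S regulators held the largest changes. E2F2, an activating E2F factor, stood at 296 and 296 normalized reads in sample cells, 303 and 234 in mock cells and 888 and 870.2 in untransfected cells. Every transfected library was far below both untransfected ones, and the values rest on 378 and 72 reads in sample cells. By the authors' deposited table the log2 fold change of E2F2 was -1.52 (SE 0.17, adjusted p = 9.15e-17) in sample cells and -1.66 (SE 0.14, adjusted p = 6.62e-31) in mock cells.

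E2F1, the founding activator of the family, stood at 2158 and 2355 normalized reads in sample cells, 1947 and 2101 in mock cells and 3204 and 3183 in untransfected cells. The groups of transfected and untransfected libraries did not overlap. Its log2 fold change was -0.50 (SE 0.11, adjusted p = 6.33e-05) in sample cells and -0.64 (SE 0.08, adjusted p = 2.97e-14) in mock cells in the authors' deposited table. Per kilobase of transcript E2F1 remained the more abundant of the pair, at 862 and 941 normalized reads in sample cells against 57.0 and 57.1 for E2F2. E2F2 reads per 100 E2F1 reads, a pair chosen after its values were seen, were 13.7 and 12.6 in sample cells, 15.5 and 11.1 in mock cells and 27.7 and 27.3 in untransfected cells. E2F2 therefore fell further than E2F1 within each transfected library.

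CCNE1, which codes for the cyclin E1 that activates CDK2, moved the other way. It stood at 3557 and 3854 normalized reads in sample cells, 3702 and 3865 in mock cells and 2273 and 2309 in untransfected cells. All 4 transfected libraries were above both untransfected ones, and the log2 fold change was 0.68 (SE 0.11, adjusted p = 9.92e-09) in sample cells and 0.74 (SE 0.08, adjusted p = 5.79e-21) in mock cells in the authors' deposited table. CCNE2, its paralog, was not called, at 649 and 523 normalized reads in sample cells, 674 and 553 in mock cells and 737 and 645 in untransfected cells. INTS8 lies on the opposite strand across 37.0% of the exonic bases of CCNE2 and averaged 1477 normalized reads against 630.2 for CCNE2. The libraries were made with a directional kit, but whether reads were counted by strand is not given in the sources used here.

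**Figure D2:**
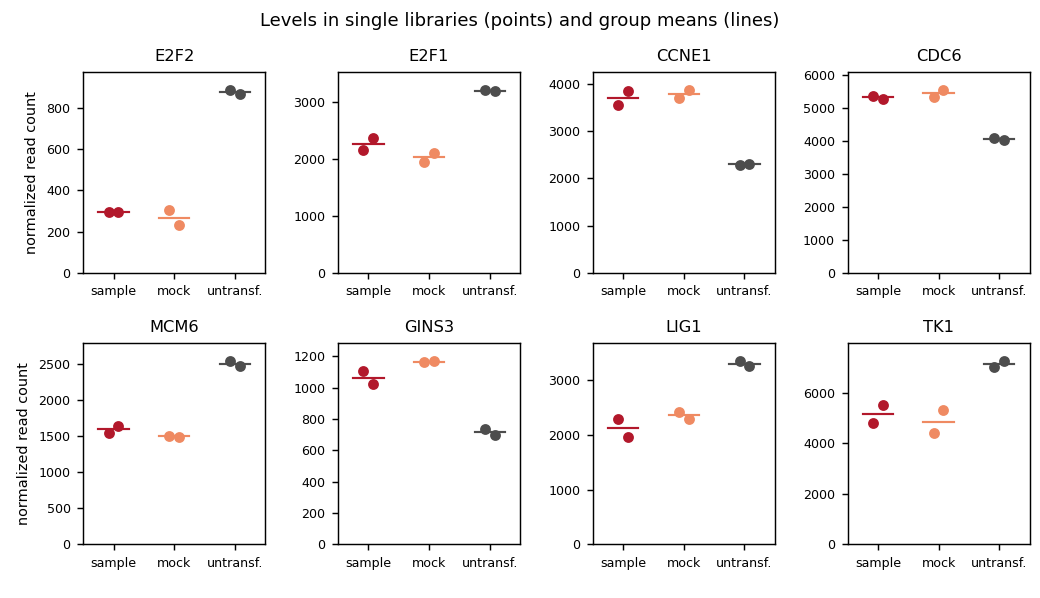
Normalized read counts of 8 replication genes in single libraries (points) with the group mean (line), for sample, mock and untransfected cells from left to right, on axes that start at 0. E2F2, E2F1, MCM6, LIG1 and TK1 are lower and CCNE1, CDC6 and GINS3 higher in all 4 transfected libraries than in both untransfected libraries.

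Among the licensing genes, which load the helicase in G1, the called members were higher. CDC6, the ATPase that recruits the helicase to the origin complex, stood at 5375 and 5295 normalized reads in sample cells, 5361 and 5558 in mock cells and 4104 and 4039.6 in untransfected cells. For CDC6 the log2 fold change was 0.39 (SE 0.10, adjusted p = 0.00058) in sample cells and 0.44 (SE 0.07, adjusted p = 2.58e-09) in mock cells in the authors' deposited table. ORC6, the smallest subunit of the origin recognition complex, stood at 1649 and 1248 normalized reads in sample cells, 1847 and 1599.7 in mock cells and 1196 and 1007 in untransfected cells. Its libraries spread widely within each group, and in the authors' deposited table it missed the threshold in sample cells, at 0.40 log2 units (adjusted p = 0.0559), and was called in mock cells, at 0.66 (adjusted p = 1.14e-08). ORC1, the licensing factor CDT1 and its inhibitor GMNN were not called in either comparison, with log2 fold changes from 0.00 to 0.19 in the authors' deposited table.

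The 6 subunits of the MCM2-7 helicase did not move together, although the complex holds each of them once. MCM6 stood at 1539.6 and 1639 normalized reads in sample cells, 1497 and 1488 in mock cells and 2531 and 2472 in untransfected cells. The transfected libraries were close to each other and well below the untransfected ones. In log2 units MCM6 changed by -0.65 (SE 0.12, adjusted p = 3.77e-07) in sample cells and -0.72 (SE 0.08, adjusted p = 2.36e-17) in mock cells in the authors' deposited table. MCM7 stood at 12011 and 10487 normalized reads in sample cells, 11943 and 12012 in mock cells and 12583 and 12094 in untransfected cells. It was not called in either comparison (log2 fold change -0.13 and adjusted p = 0.371 in sample cells, -0.03 and 0.779 in mock cells, in the authors' deposited table).

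In the authors' deposited table MCM2 missed the threshold in sample cells, at -0.20 log2 units (adjusted p = 0.0877), and was called lower in mock cells, at -0.17 (adjusted p = 0.0288). MCM3, MCM4 and MCM5 were not called, with log2 fold changes from -0.15 to 0.13 in the authors' deposited table. MCM6 made up 3.40% and 3.79% of the reads of the 6 subunits in sample cells, 3.29% and 3.24% in mock cells and 5.16% and 5.14% in untransfected cells. These shares are not corrected for transcript length and describe the difference between groups only.

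Genes that switch the loaded helicase on went both ways. MCM10, a scaffold needed to start unwinding, stood at 3707 and 3471 normalized reads in sample cells, 3842 and 4147 in mock cells and 2814 and 2752 in untransfected cells. All 4 transfected libraries were higher, and the log2 fold change was 0.36 (SE 0.11, adjusted p = 0.00352) in sample cells and 0.54 (SE 0.08, adjusted p = 3.44e-11) in mock cells in the authors' deposited table. CDC7, the kinase that phosphorylates the MCM complex, stood at 958 and 840.0 normalized reads in sample cells, 942 and 887 in mock cells and 1392 and 1266 in untransfected cells. Its transfected libraries were all lower, with log2 fold changes of -0.54 (adjusted p = 0.00139) in sample cells and -0.52 (adjusted p = 1.89e-06) in mock cells in the authors' deposited table. DBF4, the subunit that activates CDC7, was not called (log2 fold change 0.04 in sample cells and 0.19 in mock cells in the authors' deposited table).

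The GINS complex joins CDC45 and MCM2-7 in the active helicase, and its subunits split as well. GINS3 stood at 1105 and 1021 normalized reads in sample cells, 1162 and 1168 in mock cells and 737 and 698 in untransfected cells. GINS2 stood at 1722 and 1898 normalized reads in sample cells, 1625 and 1845 in mock cells and 2344 and 2465 in untransfected cells. GINS3 was higher and GINS2 lower in every transfected library, and both were called in both comparisons. The log2 fold change of GINS3 was 0.56 (SE 0.15, adjusted p = 0.000771) in sample cells and 0.71 (SE 0.10, adjusted p = 4.77e-11) in mock cells in the authors' deposited table. For GINS2 it was -0.41 (SE 0.12, adjusted p = 0.00299) in sample cells and -0.45 (SE 0.09, adjusted p = 3.15e-06) in mock cells in the authors' deposited table. GINS3 reads per 100 GINS2 reads, a pair also chosen after its values were seen, were 64.2 and 53.8 in sample cells, 71.5 and 63.3 in mock cells and 31.4 and 28.3 in untransfected cells. An antisense transcript covers 10.9% of the exonic bases of GINS3. Antisense transcripts also cover 22.7% of the exonic bases of MCM2 and 21.2% of those of GINS4. On the same strand other genes share 35.1% for POLA2, 20.2% for RRM2 and 14.85% for PRIM1, and further members have overlaps too. GINS1 and CDC45 were called neither by DESeq2 in the authors' deposited table nor by limma-voom on all 6 libraries. GINS4 stood at 1084 and 959 normalized reads in sample cells, 1083 and 1034 in mock cells and 1231 and 1250.1 in untransfected cells, lower in every transfected library. It missed the threshold in the authors' deposited table, at -0.26 log2 units (adjusted p = 0.14) in sample cells and -0.21 (adjusted p = 0.0583) in mock cells, while limma-voom called it lower in both (adjusted p = 0.0497 in sample cells and 0.0367 in mock cells).

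**Figure D3:**
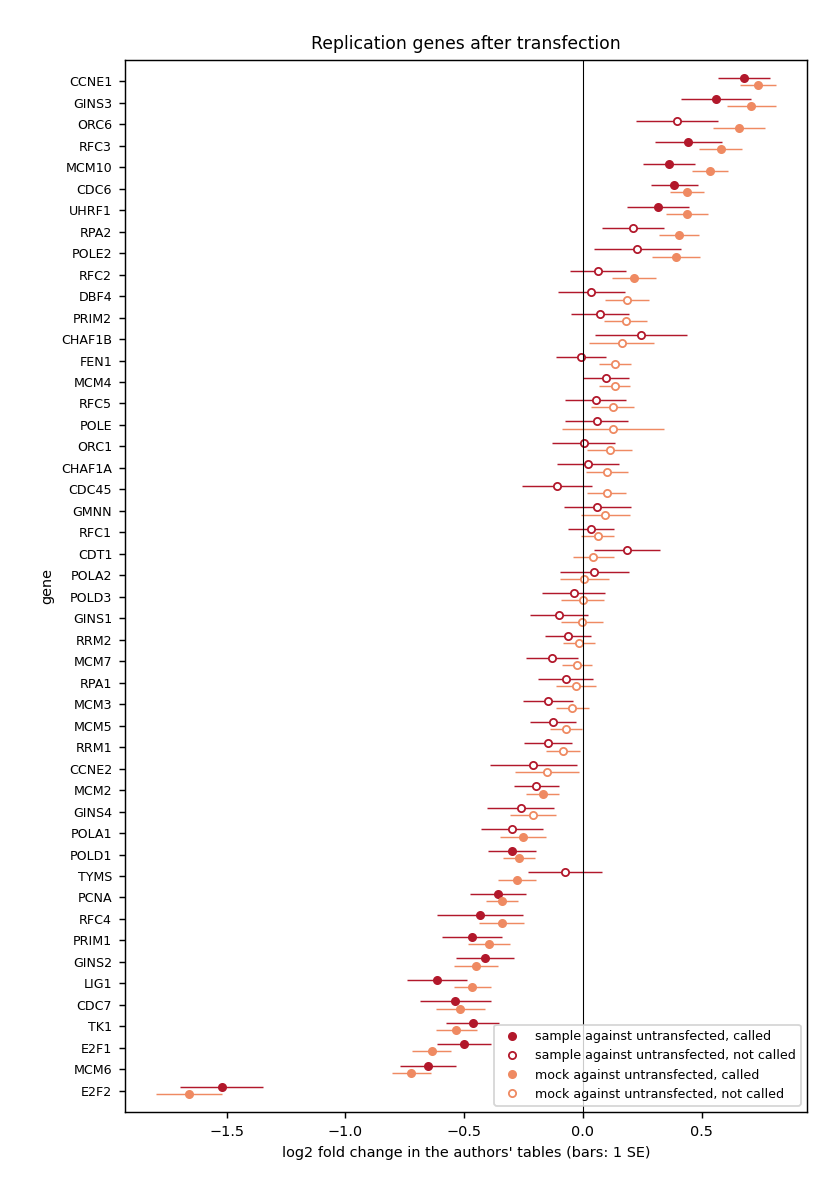
Log2 fold change of each replication gene in sample against untransfected cells (dark red) and mock against untransfected cells (orange) in the authors' deposited tables, with bars of 1 SE and filled points for an adjusted p under 0.05. E2F2 stands alone at -1.52 and -1.66, the other genes lie between -0.72 and 0.74, and both series use the same untransfected libraries.

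Of the polymerase and primase genes the called catalytic subunits were lower. POLD1, the catalytic subunit of the polymerase that copies mainly the lagging strand, stood at 5038 and 4780.5 normalized reads in sample cells, 4972 and 4954 in mock cells and 6010.0 and 6094 in untransfected cells. POLD1 had a log2 fold change of -0.30 (SE 0.10, adjusted p = 0.011) in sample cells and -0.27 (SE 0.07, adjusted p = 0.000247) in mock cells in the authors' deposited table. PRIM1, the catalytic primase subunit, stood at 1355 and 1449 normalized reads in sample cells, 1408 and 1497 in mock cells and 1905 and 1971 in untransfected cells. In the authors' deposited table PRIM1 fell by 0.47 log2 units in sample cells (adjusted p = 0.000876) and by 0.40 in mock cells (adjusted p = 2.64e-05). Neither gene overlapped between transfected and untransfected libraries.

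POLA1, the catalytic subunit of the priming polymerase, stood at -0.30 log2 units (adjusted p = 0.0564) in sample cells and at -0.25 (adjusted p = 0.0179) in mock cells in the authors' deposited table, and only the second passed. POLE2, an accessory subunit of the leading-strand polymerase, was at 0.23 log2 units in sample cells (adjusted p = 0.348) and was called higher in mock cells at 0.39 (adjusted p = 0.000334) by the authors' deposited table. Its sample libraries stood at 1526 and 1066 normalized reads, and the lower of them fell among the untransfected values of 1188 and 1036. POLA2, PRIM2, POLD3 and the leading-strand catalytic subunit POLE were not called, with log2 fold changes from -0.04 to 0.18 in the authors' deposited table.

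The sliding clamp PCNA, which tethers polymerases to DNA, stood at 6471 and 5493 normalized reads in sample cells, 6073 and 5949 in mock cells and 7899 and 7532 in untransfected cells. It was lower in every transfected library, with a log2 fold change of -0.36 (SE 0.12, adjusted p = 0.00806) in sample cells and -0.34 (SE 0.07, adjusted p = 2.15e-06) in mock cells in the authors' deposited table. Of the loader complex that opens the clamp, RFC3 stood at 1732 and 1482 normalized reads in sample cells, 1783 and 1718 in mock cells and 1218 and 1145 in untransfected cells. RFC4 stood at 1351 and 922 normalized reads in sample cells, 1286 and 1161 in mock cells and 1617 and 1533 in untransfected cells. RFC3 was thus higher and RFC4 lower in all 4 transfected libraries. The log2 fold change of RFC3 was 0.44 (adjusted p = 0.00608) in sample cells and 0.58 (adjusted p = 1.27e-09) in mock cells, and that of RFC4 was -0.43 (adjusted p = 0.0431) and -0.34 (adjusted p = 0.00101) in the authors' deposited table. RFC4 had the widest ratio between the sample libraries of all 48 genes, 1.46. By the authors' deposited table RFC2 was at 0.06 log2 units in sample cells (adjusted p = 0.725) and was called higher in mock cells at 0.22 (adjusted p = 0.0386). RFC1 and RFC5 were not called.

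LIG1, the ligase that seals Okazaki fragments, stood at 2293 and 1960.0 normalized reads in sample cells, 2424 and 2289 in mock cells and 3346 and 3255 in untransfected cells. The gap between transfected and untransfected libraries was wider than the spread within any group. LIG1 had a log2 fold change of -0.61 (SE 0.13, adjusted p = 7.09e-06) in sample cells and -0.47 (SE 0.08, adjusted p = 1.36e-08) in mock cells in the authors' deposited table. FEN1, the nuclease that trims the fragments before ligation, stood at 5579.6 and 5081 normalized reads in sample cells, 5762 and 5903 in mock cells and 5296 and 5446 in untransfected cells. FEN1 overlapped between groups and was not called (log2 fold change -0.01 in sample cells and 0.14 in mock cells in the authors' deposited table). LIG1 reads per 100 FEN1 reads, chosen after the values were seen, were 41.1 and 38.6 in sample cells, 42.1 and 38.8 in mock cells and 63.2 and 59.8 in untransfected cells. Of the single-strand binding protein, RPA2 was at 0.21 log2 units in sample cells (adjusted p = 0.213) and was called higher in mock cells at 0.41 (adjusted p = 7.39e-06) by the authors' deposited table. The large subunit RPA1 was not called.

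Of the genes that supply deoxynucleotides, TK1, the thymidine kinase of the salvage pathway, stood at 4815 and 5534 normalized reads in sample cells, 4418 and 5308 in mock cells and 7026 and 7247 in untransfected cells. The transfected libraries spread but stayed below both untransfected ones, with log2 fold changes of -0.46 (SE 0.11, adjusted p = 0.000159) in sample cells and -0.53 (SE 0.09, adjusted p = 5.96e-09) in mock cells in the authors' deposited table. RRM2, the regulated subunit of ribonucleotide reductase, stood at 6284 and 6666 normalized reads in sample cells, 6472 and 6718 in mock cells and 6780.0 and 6716 in untransfected cells. RRM2 was not called (log2 fold change -0.06 in sample cells and -0.02 in mock cells in the authors' deposited table), nor was RRM1. TYMS, the thymidylate synthase of de novo synthesis, stood at 2362 and 3261 normalized reads in sample cells, 2452 and 2338 in mock cells and 3039 and 2840.1 in untransfected cells. Of its sample libraries, a lay below and b above both untransfected libraries. By the authors' deposited table TYMS was at -0.08 log2 units in sample cells (adjusted p = 0.754) and was called lower in mock cells at -0.28 (adjusted p = 0.00168). ENOSF1 lies on the opposite strand across 39.2% of the exonic bases of TYMS, and averaged 4.83 normalized reads.

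UHRF1, which brings maintenance DNA methylation to new strands, stood at 1697 and 1573 normalized reads in sample cells, 1749 and 1772 in mock cells and 1349 and 1274 in untransfected cells. It was higher in all 4 transfected libraries, with log2 fold changes of 0.32 (adjusted p = 0.0411) in sample cells and 0.44 (adjusted p = 3.97e-06) in mock cells in the authors' deposited table. The chromatin assembly subunits CHAF1A and CHAF1B were not called, with CHAF1A at 1662 and 1495 normalized reads in sample cells, 1695 and 1623 in mock cells and 1607 and 1519 in untransfected cells.

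How firmly the calls stood varied. Under every alternative that was run, 12 of the 17 genes called in sample cells and 18 of the 24 called in mock cells kept their call. In sample cells PCNA missed the threshold without untransfected library a (limma adjusted p = 0.0628) and POLD1 without untransfected library b (adjusted p = 0.0529). UHRF1 missed it without sample library a (adjusted p = 0.0868), without untransfected library b (adjusted p = 0.0721) and with library totals (adjusted p = 0.108). RFC3 missed it with its second transcript entry (adjusted p = 0.142). RFC4 missed it without sample library b (adjusted p = 0.0589), without either mock library and without either untransfected library, with a highest adjusted p of 0.161.

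In mock cells limma-voom on all 6 libraries did not call TYMS (adjusted p = 0.0511) or RFC2 (adjusted p = 0.0686), and with library totals it did not call RFC2 (log2 fold change 0.05, adjusted p = 0.543) or POLE2 (adjusted p = 0.192). RFC4 and TYMS lost their calls without any 1 of the mock and untransfected libraries (adjusted p from 0.0650 to 0.161 for RFC4 and from 0.0968 to 0.221 for TYMS). MCM2 lost it without mock library a or either untransfected library (adjusted p from 0.118 to 0.196), and POLA1 without mock library b or either untransfected library (adjusted p from 0.0741 to 0.118). RFC2 lost it without the same 3 libraries as POLA1 (adjusted p from 0.133 to 0.367). POLE2 lost it without either mock library or untransfected library b (adjusted p from 0.0728 to 0.175). With sample library b alone for sample cells, the limma log2 fold change against untransfected cells was 0.35 for CDT1. In that fit it was -0.23 for MCM7, -0.32 for CDC45, -0.37 for GINS4 and -0.35 for POLA1. None of these genes was called in sample cells in the authors' deposited table. With library totals MCM5, GINS4, RRM1 and RRM2 were called lower in both comparisons and MCM7 in sample cells, none of which passed in the authors' deposited table.

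Library pairs of a group differed by a median ratio of 1.09 over the 48 genes in sample cells, 1.05 in mock cells and 1.03 in untransfected cells. A ratio above 1.2 was seen for 8 genes in the sample pair, 4 in the mock pair and 0 in the untransfected pair.

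No replication gene was called between sample and mock cells, which differ in the plasmids they received. The lowest adjusted p of the 48 was 0.9999 in the authors' deposited table, and none had an unadjusted p under 0.05. Over all 15285 genes tested 0.0654% were called by DESeq2, 0.00654% higher and 0.0589% lower, or 0.0743% of those with a mean of 50 or more, and 297 had an unadjusted p under 0.05. With limma-voom on the solved counts 0 genes were called of 14891. The limma log2 fold changes of the 48 ran from -0.18 for ORC6 to 0.14 for E2F2, with a median of -0.03. All 48 intervals at 95% held 0 and lay within 0.5 either way, the widest bounds being -0.49 for ORC6 and 0.49 for E2F2. Differences inside those intervals were not detectable with 2 libraries a group. For E2F1 the interval was -0.05 to 0.32, for MCM6 -0.11 to 0.25, for CCNE1 -0.21 to 0.12 and for CDC6 -0.18 to 0.12. With sample library b alone standing for sample cells, TYMS was called higher than in mock cells (limma log2 fold change 0.45, adjusted p = 0.0231), in a fit that called 827 genes.

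**Figure D4:**
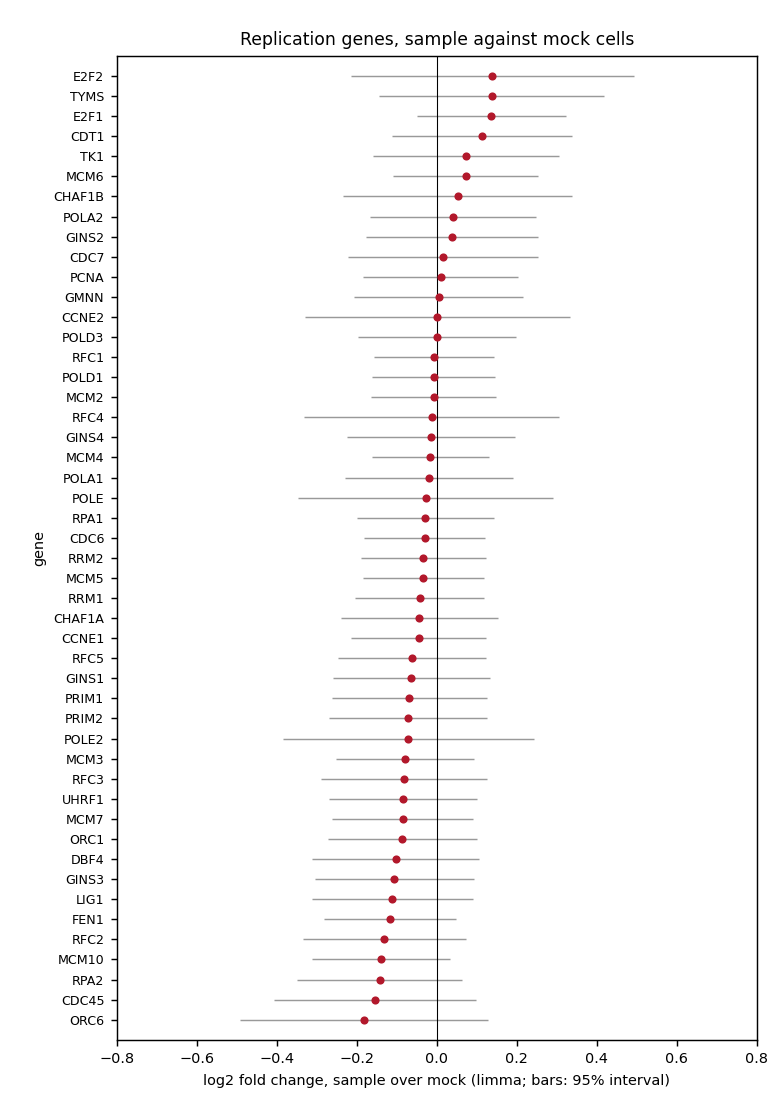
Log2 fold change of each replication gene in sample over mock cells from limma-voom on the solved counts, with 95% intervals. All 48 intervals cross 0 and stay between -0.49 and 0.49.

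Further genes of the same pathway, 59 that are no members of the list, also went both ways. In mock against untransfected cells 20 rose and 16 fell, and in sample against untransfected cells 12 rose and 11 fell, in the authors' deposited table. None was called between sample and mock cells. By limma-voom on all 6 libraries 15 rose and 15 fell in sample cells and 18 rose and 17 fell in mock cells, and with library totals as the scale 11 rose and 17 fell in sample cells and 13 rose and 22 fell in mock cells. Those called as deposited made up 39.0% in sample cells and 61.0% in mock cells, beside backgrounds of 37.3% and 50.9% of all genes. Among genes with a mean of 50 or more those backgrounds were 43.4% and 61.2%. By limma-voom on all 6 libraries 50.9% of all genes were called in sample cells and 59.2% in mock cells.

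CDC25A, the phosphatase that frees CDK2 at the G1/S boundary, stood at 3797 and 3747 normalized reads in sample cells, 4099.9 and 4474 in mock cells and 2239.6 and 2089.6 in untransfected cells. POLE3, a histone-fold subunit of the leading-strand polymerase, stood at 5322 and 5686 normalized reads in sample cells, 5216 and 5827 in mock cells and 2904 and 2915 in untransfected cells. Both were higher in every transfected library, with log2 fold changes for CDC25A of 0.79 in sample cells and 1.00 in mock cells and for POLE3 of 0.91 and 0.94 in the authors' deposited table. TIPIN, a fork protection factor, stood at 1015 and 951 normalized reads in sample cells, 1050.1 and 1156 in mock cells and 569 and 561 in untransfected cells. TIMELESS, the partner of TIPIN, was called lower, with log2 fold changes of -0.34 (adjusted p = 0.0338) in sample cells and -0.44 (adjusted p = 7.22e-06) in mock cells, against 0.79 and 0.97 for TIPIN in the authors' deposited table. Without sample library a or untransfected library a, TIMELESS missed the threshold in sample cells (limma adjusted p = 0.122 and 0.0797). ORC5, an origin complex subunit, had log2 fold changes of 0.56 in sample cells and 0.78 in mock cells in the authors' deposited table. With its second transcript entry ORC5 missed the threshold in sample cells there, at 0.46 (adjusted p = 0.0568). ATRIP, the partner of the checkpoint kinase ATR, had log2 fold changes of 0.73 in sample cells and 0.78 in mock cells in the authors' deposited table. POLD4, the small subunit of the lagging-strand polymerase, was lower in every transfected library, at 108 and 140.0 normalized reads in sample cells, 114 and 103 in mock cells and 294 and 262 in untransfected cells. The log2 fold change of POLD4 was -1.12 (adjusted p = 0.000176) in sample cells and -1.29 (adjusted p = 6.59e-10) in mock cells in the authors' deposited table.

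Members of the E2F family went both ways. E2F3, the third activator, stood at 959.9 and 881 normalized reads in sample cells, 1023 and 951 in mock cells and 562 and 592 in untransfected cells. E2F4, which acts mainly in repressor complexes, stood at 2556 and 2755 normalized reads in sample cells, 2558 and 2528 in mock cells and 1558 and 1437 in untransfected cells. Both were above the untransfected libraries in all 4 transfected libraries, while E2F1 and E2F2 were below them. The log2 fold change of E2F3 was 0.66 (adjusted p = 0.000136) in sample cells and 0.78 (adjusted p = 1.73e-11) in mock cells, and that of E2F4 was 0.81 (adjusted p = 4.92e-10) and 0.78 (adjusted p = 1.1e-18) in the authors' deposited table. E2F8, an atypical repressor, stood at 223 and 198 normalized reads in sample cells, 230.4 and 181 in mock cells and 333 and 274 in untransfected cells. By the authors' deposited table E2F8 missed the threshold in sample cells, at -0.48 log2 units (adjusted p = 0.105). It was called lower in mock cells, at -0.52 (adjusted p = 0.0117). That call was lost without mock library b or untransfected library a (limma log2 fold change -0.40 and -0.41). On all 6 libraries limma-voom called E2F8 lower in sample cells (adjusted p = 0.0485). E2F5 was not called in the authors' deposited table, at -0.25 log2 units in sample cells and -0.46 (adjusted p = 0.121) in mock cells. For E2F5 limma-voom gave a lower call in mock cells (adjusted p = 0.0277). In the authors' deposited table E2F6 and E2F7 were called higher in mock cells, at 0.50 and 0.25 log2 units, and not in sample cells, at 0.38 (adjusted p = 0.0815) and 0.19 (adjusted p = 0.214). The E2F7 call was lost with library totals (limma adjusted p = 0.465), without mock library a (0.202) and without untransfected library a or b (0.102 and 0.152), whereas limma-voom also called E2F6 in sample cells (adjusted p = 0.0102).

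E2F1 reads per 100 E2F4 reads, chosen after the values were seen, were 84.5 and 85.5 in sample cells, 76.1 and 83.1 in mock cells and 206 and 222 in untransfected cells. The dimer partner TFDP1 had log2 fold changes of 0.54 in sample cells and 0.56 in mock cells and TFDP2 of -0.46 and -0.58, all called in the authors' deposited table. Of the pocket proteins that restrain E2F factors, RBL2 was called lower in both (log2 fold change -0.69 in sample cells and -0.69 in mock cells) and RB1 in mock cells (-0.28) in the authors' deposited table. RB1 lost that call without mock library b (limma adjusted p = 0.0560) and without untransfected library a (0.0770). RBL1 was not called in either.

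Of 28 genes of G2 and mitosis 2 rose and 10 fell in mock against untransfected cells. In sample against untransfected cells 1 rose and 11 fell, and none was called between sample and mock cells. Those called made up 42.9% in each, beside 50.9% of all genes in mock cells and 37.3% in sample cells. Among genes with a mean of 50 or more the backgrounds were 61.2% and 43.4%. Of all genes 27.5% were called higher and 23.4% lower in mock cells, and 20.2% and 17.1% in sample cells. The median log2 fold change of the 28 was -0.17 in sample cells and -0.11 in mock cells in the authors' deposited table. The median there was -0.05 and 0.00 for the 48 replication genes, and 0.00 for all genes in both.

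The promoter windows of the replication genes held E2F words in a larger share than those of all genes, both among members that rose and among those that fell. Windows were found for 42 of the 48 genes. MCM4, MCM5, GINS4, POLD3, RPA2 and CCNE2 had no entry. Of the 42, 22 held at least 1 of the words TTTCCCGC, TTTGGCGC or TTTCGCGC on either strand, 52.4%, against 5.23% of 12992 genes tested in mock cells and 3.30% of all 27305 genes with a window. The word was present in 5 of 9 members that rose in mock cells, in 10 of 14 that fell and in 7 of 19 that were not called. CDC6, GINS3, RFC3, POLE2 and UHRF1 held it among the genes that rose, while CCNE1, ORC6, MCM10 and RFC2 did not. MCM2, MCM6, GINS2, CDC7, POLA1, PCNA, LIG1, TYMS, E2F1 and E2F2 held it among the genes that fell, and TK1, PRIM1, POLD1 and RFC4 did not. Among the 59 further genes 16 of 46 with a window held it. The word CCAAT on either strand was present in 24 of the 42 windows, 57.1%, against 42.3% of tested genes and 39.7% of all genes with a window.

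**Figure D5:**
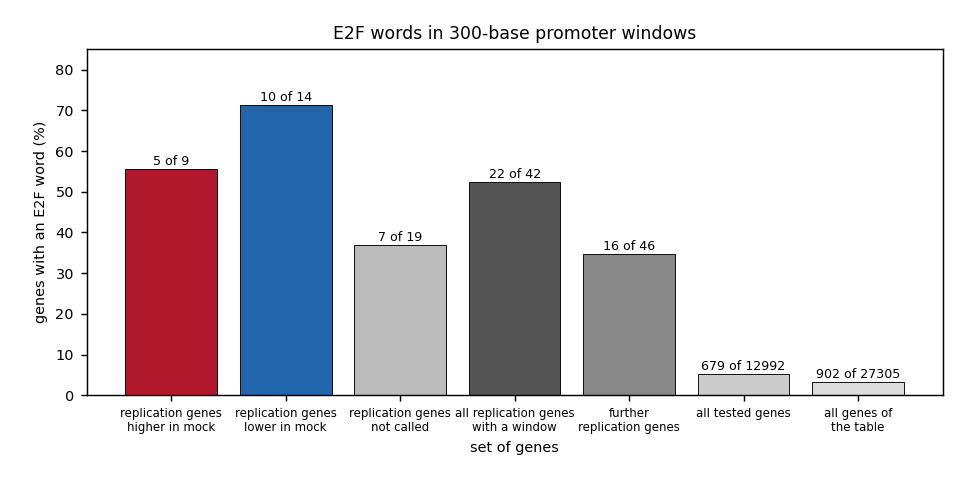
Percentage of genes whose promoter window, 250 bases before to 50 after the start, holds an E2F word on either strand, with the counts above the bars. Members that rose, fell or were not called in mock against untransfected cells all lie far above the 5.23% of all tested genes.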

How the data were processed

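Libraries were assigned to groups by the transfection stated for them. Per the labels' protocols, a column kit gave the RNA and a directional kit the libraries. The submitters' processing notes name Bowtie, STAR, DESeq2 and the build hg38. No version, annotation or strand setting of the counting is given in the sources used here. Each of the 3 deposited tables is the authors' comparison of 4 libraries over 40029 transcript entries. Its columns, per the file headers, are a mean signal (normalized reads averaged over the 4 libraries), a log2 fold change, the standard error of that value, a Wald score, a p-value and an adjusted p-value, all by the authors. The values show that the deposited log2 fold changes were shrunk toward 0, most strongly for sample against mock, and so can understate changes. In mock against untransfected cells not every deposited value lay closer to 0 than that of limma-voom. CDC6 stood at 0.44 as deposited and 0.42 by limma-voom, and MCM6 at -0.72 and -0.74.

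Whole counts per library were solved by lattice reduction from the 3 deposited mean signals of an entry, since those are sums of counts over size factors. All 30527 entries with reads met the deposited means within a relative tolerance of 1e-14, and the procedure was also tested on simulated data. Which library is which replicate number is not known. Reads of a gene's isoforms can be split between entries. Symbols were found for 39720 entries (99.2%) in a RefSeq gene table (GRCh38.p14) or, failing that, GENCODE 29, and entries without one held 0.084% of reads. No per-sample column was left out (0 columns).

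The main calls are the authors' DESeq2 results at an adjusted p under 0.05. No raw count column was at hand, so edgeR was not run. limma-voom (limma 3.58.1 under R 4.3.3) was run on the solved counts of genes with a mean of at least 10 normalized reads, with Benjamini-Hochberg adjustment over all of them, after a test on simulated data. The members and lists were chosen with earlier results of these data known. Genes given with every library are the 4 called members with the largest change per comparison, the member with the most reads of each role, and up to 6 called genes of the further list in each of them, where the deposited mean was 50 or more. Others were added after their values were seen, as were the pairs for ratios. Overlapping genes are from GENCODE 29. The software was Python 3.11.15, numpy 2.4.6, pandas 2.3.3, sympy 1.14.0 and matplotlib 3.10.9. The threshold, the filter, the entry per gene, the centring, the test, the scaling and the libraries kept were each varied.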

Additional observations from a re-analysis of the deposited data

How the results depend on the processing

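No result changed direction while called under any alternative. No paired analysis was possible because the solved libraries carry no replicate numbers, so the fit with a replicate block was not run. Leaving out a library leaves its group with 1 library, which is then assumed to vary like the others. Over these fits the count of replication genes called ran from 18 to 25 in mock against untransfected cells and from 14 to 22 in sample against untransfected cells. Between sample and mock cells it ran from 0 to 1, and that called higher from 0 to 1, the 1 being TYMS without sample library a. With limma-voom on size factors the median log2 fold change of all genes was 0.01 in sample cells and 0.01 in mock cells. On library totals it was -0.12 and -0.13. Of all 14891 genes limma-voom called 7579 in sample cells and 8816 in mock cells on size factors, and 7029 and 8350 on library totals. Replication genes called lower in sample cells numbered 11 as deposited, 14 by limma-voom on size factors and 18 on library totals, and those called higher 6, 8 and 5. In mock cells 14, 14 and 18 were lower and 10, 9 and 8 higher. In the further list library totals gave 17 lower in sample cells (15 on size factors) and 13 higher in mock cells (18 on size factors). At an adjusted p under 0.01 that list had 7 lower in sample cells. Leaving out a library, its counts ran from 9 to 18 lower in mock cells (9 without untransfected library a), from 11 to 19 higher (19 without sample library b) and 7 to 15 lower (7 without untransfected library a) in sample cells, and from 0 to 1 lower between sample and mock cells. G2 and mitosis genes called higher in mock cells numbered 1 at 0.01, 4 at 0.1 and 0 with limma on either scaling, and 0 to 2 without a library (0 without either mock or either untransfected library). In sample cells they numbered 0 at 0.01, 0 with limma on either scaling and 0 to 5 without a library, and between sample and mock cells 0 to 4, the highest counts both without sample library a. The causes were not tested. Sample library b held 9579278 reads. Over all tested genes the sample pair differed by a median of 0.22 log2 units and the mock pair by 0.13. With 2 libraries a group small changes could be missed. What depth and this spread each contributed to the fewer calls in sample cells was not tested.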
